A study of Mus musculus with 8 samples.

Results

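The RNAs described here are noncoding transcripts with a curated RefSeq record, measured in AtT20 cells, a mouse corticotroph tumor line that makes ACTH from *Pomc*. Their probes were chosen by 2 properties: the probe's accession starts with NR_, the prefix of curated noncoding records, and Feature Extraction put the probe well above background on most of its spots on all 8 arrays. Of 587 such probes on the array, for 480 accessions, 368 met the rule, out of 39429 probes that are no controls. The 368 probes stand for 308 accessions, and 322 of them were matched to 271 gene symbols. The other 46 probes have an accession that the current gene table does not hold. Since detection chose the probes, their being detected is no result.

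The study grew AtT20 cells to 50% confluence and then kept them for 48 hr in medium with 1% stripped serum, without drug (control, 4 samples) or with 10 μM HX630 (4 samples), a synthetic agonist of the retinoid X receptors (RXR). RNA of each sample was labeled with Cy3 and hybridized to a 1-color Agilent array. All 8 samples are the same cell line with no other treatment, and the labels do not say whether they came from separate cultures, so p-values measure only the spread between these samples. Control and HX630 arrays came from 2 slides, 1 per group and scanned separately, so an effect of slide or scan and one of treatment cannot be told apart. A line of tumor cells without its gland or a vehicle control named in the labels limits the model. Of the corticotroph markers looked up, all 5 were detected. *Pomc* read 8.03 in control and 7.57 in HX630 cells and *Tbx19* changed by -0.37, neither of them called (limma adjusted p below 0.01 and over 1.5-fold), while *Pcsk1* fell by 2.06 on the log2 scale and *Crhr1* and *Neurod1* rose by 1.11 and 0.72. Of 7 markers of other pituitary cells only 3 were tested, at levels between -6.33 and -3.06, of which *Gh* was called lower (-0.79). The 5 markers of fibroblasts, leukocytes and endothelium lay between -6.31 and -3.27, with *Dcn* higher by 1.04 and *Pecam1* at -0.59 in HX630 cells, and their part in the results was not tested.

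All levels below are log2 processed signals minus the 75th percentile of the array, so 0 is that percentile itself. A level compares samples for 1 probe and does not rank probes. Changes are log2 fold changes of HX630 against control from limma, fitted over all 28548 probes tested. A call needed a Benjamini-Hochberg adjusted p below 0.01 together with more than a 1.5-fold difference. The 75th percentile itself was 1335 to 1863 intensity units on the control arrays and 1803 to 1899 on the HX630 arrays, 69.7% to 73.5% of probes were above background, and no spot was saturated. Over the 368 probes, arrays of one group correlated at 0.995 to 0.998 and arrays of different groups at 0.985 to 0.988.

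Noncoding RNAs act without being translated, in several ways. Hosts of small nucleolar RNAs (snoRNAs) are transcribed and spliced so that an intron releases a snoRNA, which guides the chemical modification of ribosomal RNA, while the joined exons often have no known product. Imprinted noncoding RNAs are made from the chromosome of one parent and silence neighbors or carry microRNAs. Others build nuclear bodies, coat the X chromosome, or form the core of an enzyme, as telomerase RNA does.

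The start regions of the snoRNA hosts are shown first, since these genes held the group that fell together. Genes of the translation machinery, snoRNA hosts included, are known for transcripts that start in an unbroken run of C and T. Promoters from RefSeq on GRCm38.p6 were matched for 157 of the 271 genes, and the strand and sequence below come from that table. Each line gives 20 bases before the annotated start and 40 from it, so the start is the base after the first 20. Capitals mark the longest run of C and T that touches a window around the start. This window is the 10 bases before the start and 20 bases from it, the start base included.
Snhg12, chr4:132308658-132308717, plus strand: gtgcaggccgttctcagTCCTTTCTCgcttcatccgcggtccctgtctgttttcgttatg
Snhg1, chr19:8723467-8723526, plus strand: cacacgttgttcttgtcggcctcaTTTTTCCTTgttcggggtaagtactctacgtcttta
Snhg16, chr11:116671640-116671699, plus strand: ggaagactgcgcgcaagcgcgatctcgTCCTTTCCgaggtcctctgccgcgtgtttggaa
2410006H16Rik, chr11:62602857-62602916, plus strand: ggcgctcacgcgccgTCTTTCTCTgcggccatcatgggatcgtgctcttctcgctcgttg
1110038B12Rik, chr17:34952429-34952488, minus strand: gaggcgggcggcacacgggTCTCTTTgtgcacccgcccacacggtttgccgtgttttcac
Snhg7, chr2:26640205-26640264, minus strand: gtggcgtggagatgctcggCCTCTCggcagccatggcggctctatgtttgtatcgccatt
Snhg3, chr4:132353647-132353706, minus strand: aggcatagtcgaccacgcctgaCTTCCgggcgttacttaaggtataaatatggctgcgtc
Snhg17, chr2:158361470-158361529, minus strand: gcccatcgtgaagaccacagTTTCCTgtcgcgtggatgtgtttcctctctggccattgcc
Dancr, chr5:74093040-74093099, plus strand: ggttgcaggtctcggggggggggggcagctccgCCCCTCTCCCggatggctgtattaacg
A run of 7 bases or more was present in 7 of 12 start windows of noncoding snoRNA hosts (58.3%), which belong to 6 of 10 genes. The count takes any run that touches the window and does not measure whether a transcript begins in it. In *Dancr*, *Snhg16* and *Snhg1* the run begins 13, 7 and 4 bases after the annotated start. It was present in 44 of 180 promoters of all the noncoding genes (24.4%) and in 8077 of 32851 promoters of the whole table (24.6%). Of the called hosts in that table, *Snhg7*, *Snhg17* and *Snhg3* fell without such a run, with 6, 6 and 5 bases at the starts shown. A longer run in the *Snhg17* line begins just past the window and was not counted. *Dancr*, with the longest run of these hosts, 10 bases, was not called. *Snhg6* is not in that table and its sequence is not shown. The host 4833422C13Rik, with a run of 5 bases and no call, is not shown either. A match of letters is a description and no evidence of control.

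Most of the noncoding RNAs changed little. Of the 368 probes, 17 rose (4.62%) and 54 fell (14.7%), against a background of 7.09% up and 10.8% down among the 26102 probes well above background on all 8 arrays. The HX630 arrays lay entirely above control for 69 probes (18.75%, background 25.2%) and entirely below for 134 (36.4%, background 32.4%), and the groups overlapped for 165. The median change was -0.13, beside -0.056 for all probes on all 8 arrays and -0.035 for the 18731 probes of curated coding transcripts. The 17 risers are 16 symbols, and the 54 that fell are 42 symbols and 4 probes without one. In RNA from whole cultures, fewer cells that express a gene and less RNA per cell cannot be told apart.

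The split between rises and falls depended on the scaling and the background correction. Rises were 23.9% of the calls, 34.7% with each array's median as the reference, 35.2% after quantile normalization and 53.8% (43 up, 37 down) when arrays were scaled to the spike-in controls. With normexp background correction they were 15.8% (9 up, 48 down). Spike-in scaling moved the median change of all probes on all 8 arrays from -0.056 to 0.17, so falls are described here relative to the other probes of the same arrays.

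**Figure D1:**
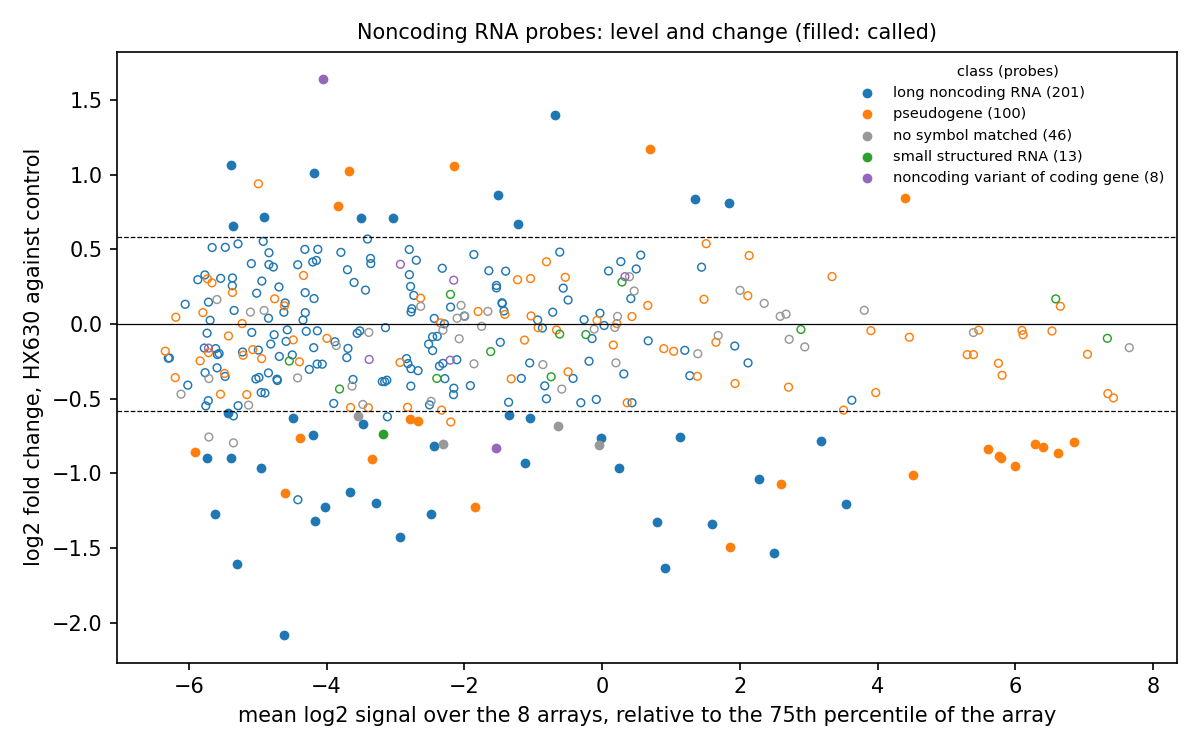
Each point is 1 of the 368 noncoding RNA probes. The x axis is the mean log2 signal over the 8 arrays relative to the 75th percentile, the y axis is the log2 fold change of HX630 against control, colors are RNA classes with their number of probes, filled points were called, and dashed lines mark a fold change of 1.5. Calls occur over most of the range of signals, with 54 filled points below the lower line and 17 above the upper one.

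By annotated class, the 201 probes of long noncoding RNAs held 11 rises (5.47%) and 30 falls (14.9%), with a median of -0.12. The 100 pseudogene probes held 5 rises (5%) and 18 falls (18%), with a median of -0.18. The 46 probes without a symbol held no rise and 4 falls (8.70%). Of 13 small structured RNAs 1 fell (7.69%), and of 8 noncoding variants of coding genes 1 rose and 1 fell (12.5% each). These shares stand beside 7.09% up and 10.8% down over all probes on all 8 arrays. The median standard error of the change was 0.073 over these probes and 0.061 over all probes on all 8 arrays. At the edge of the detection rule, the 17 noncoding probes above background on 7 arrays had mean levels from -6.54 to -5.30, and the dimmest ones kept were *Cyp2d13* at -6.34, 4932435O22Rik at -6.30 and 4933406F09Rik at -6.28.

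The noncoding snoRNA hosts fell together. Of 20 host genes listed, 9 were found on the array by symbol and all 9 were among the noncoding RNAs here, with 10 probes. Of these, 7 probes of 7 genes fell and none rose. For all 10 probes every HX630 array lay below every control array, and the median change was -0.86, beside -0.13 for the 368 probes. *Snhg12*, whose annotated span holds 4 snoRNA genes (*Snora16a*, *Snora44*, *Snora61* and *Snord99*), fell the most. It read 1.68, 1.77, 1.79 and 1.67 on the control arrays and 0.17, 0.06, 0.10 and 0.03 on the HX630 arrays. The means were 1.73 ± 0.061 and 0.090 ± 0.059 (SD, n = 4 each), which left 32.1% of the control signal (log2 fold change -1.64, SE 0.046, limma adjusted p = 1.9e-07).

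*Snhg6*, the host of *Snord87*, read 3.07, 3.31, 3.34 and 3.31 in control and 1.73, 1.66, 1.74 and 1.76 in HX630 cells. It kept 34.5% of its control signal (-1.53, SE 0.064, limma adjusted p = 7.9e-07). *Snhg1*, the host of *Snord22* and other snoRNAs of its introns, read 1.41, 1.46, 1.51 and 1.45 in control and 0.20, 0.13, 0.13 and 0.04 with HX630. It kept 39.8% (-1.33, SE 0.045, limma adjusted p = 3.3e-07). In all 3 genes the groups lay apart by more than the whole range within either of them.

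The brighter of the *Snhg16* probes read 2.17, 2.31, 2.27 and 2.29 in control and 0.91, 0.95, 0.95 and 0.87 with HX630 (-1.34, SE 0.042, limma adjusted p = 2.6e-07). The other *Snhg16* probe, for the same accession, went from -2.22 ± 0.048 to -2.50 ± 0.043 (SD, n = 4 each), a change of -0.28 that was under the fold threshold. So the probes of *Snhg16*, the host of *Snord1a*, *Snord1b* and *Snord1c*, were both lower with HX630 and differed in size. *Snhg7* (*Snora17* and *Snora43*) fell by 0.97 on the log2 scale, *Snhg3* (*Snora73a* and *Snora73b*) by 0.76 and *Snhg17* by 0.63.

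*Snhg10* changed by -0.34 (limma adjusted p = 0.0063) and *Dancr*, which holds *Snora26*, by -0.25 (limma adjusted p = 0.0043), and both missed the fold threshold. *Snhg10* counts as a host by its name only, since its annotated span on GRCm38.p6 holds no snoRNA gene. All 10 probes stayed on the lower side under every scaling tried, and 5 to 7 of them were called. *Snhg3* at -0.53 and *Snhg17* at -0.41 were no longer past the fold threshold under spike-in scaling, nor was *Snhg17* with array medians or normexp (-0.54 in each).

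A search by position, which did not use names, found most of the same hosts again. Among the 271 genes, by the probe with the highest signal of each, 12 had at least 1 annotated snoRNA gene within their span on GRCm38.p6, with strand not checked. Of these 12, 9 fell and none rose, with a median change of -1.0, and for 10 the groups did not overlap. Only 4 of the 12 were not named *Snhg* or *Dancr*, and 2 of these 4 fell. The counts therefore mostly repeat the name list and are no separate support for it. Of the other 259 genes, 30 fell (11.6%) and 15 rose, with a median of -0.12. The 2 falling hosts that the name list had missed were 2410006H16Rik and 1110038B12Rik. The span of 2410006H16Rik holds *Snord49a*, *Snord49b* and *Snord65*. Its probe read 4.12, 4.16, 4.16 and 4.12 in control and 3.04, 2.93, 2.88 and 2.88 with HX630 (-1.21, SE 0.044, limma adjusted p = 4.6e-07). The probe of 1110038B12Rik, with *Snord52* in its span, read 2.70, 2.84, 2.81 and 2.85 in control and 1.82, 1.7, 1.69 and 1.84 with HX630 (-1.04, limma adjusted p = 2.2e-06). The 3 hosts of the 12 that were not called were *Dancr*, 4833422C13Rik (-0.21) and the pseudogene Gm4759 (0.12).

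Coding genes that carry snoRNAs gave other values. Of 297 coding genes with a snoRNA gene in their span, 22 rose (7.41%) and 25 fell (8.42%), with a median of -0.054, while the other 13735 coding genes held 8.10% rises and 10.8% falls. The 28 ribosomal protein genes among these hosts had none called in either direction by limma or by the methods' t-test, and 20 were lower and none higher at an unadjusted limma p below 0.05. Their median was -0.22 and their changes ran from -0.49 to 0.018. These counts are descriptions side by side, and the difference between noncoding and coding hosts was not tested.

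**Figure D2:**
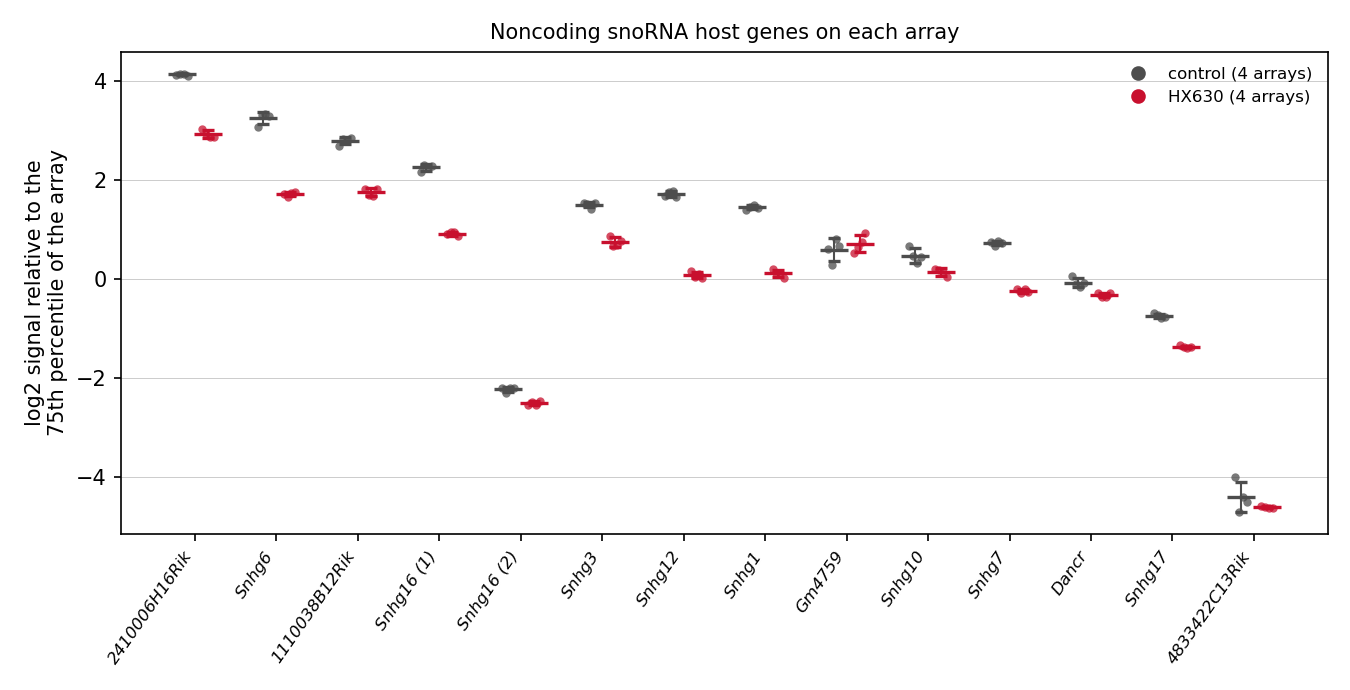
Each point is the log2 signal of 1 probe on 1 array relative to the 75th percentile of that array, in gray for 4 control and in red for 4 HX630 arrays, with bars for the mean and SD. The x axis names the 12 noncoding genes with an annotated snoRNA gene in their span and *Snhg10*, and numbers in parentheses tell probes of one gene apart. The red points lie below the gray ones for every gene but Gm4759 and 4833422C13Rik, where they overlap.

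The proteins that work on these RNAs had smaller median changes than the noncoding hosts, a difference that was not tested. Among all 28548 probes tested, 7.46% rose and 11.2% fell. None of the 8 snoRNP core proteins was called by limma or the methods' t-test, with 6 lower and 1 higher at an unadjusted limma p below 0.05. Their median change was -0.16, and it ran from -0.47 for *Nhp2* to 0.28 for *Snu13*. None of 9 nonsense-mediated decay factors, which degrade spliced RNAs with early stops such as many *Snhg* exons, was called by either test. Their median was 0.10, with 4 higher and 3 lower at an unadjusted limma p below 0.05.

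Only few small RNAs have their own probes here. Whether the study's labeling captures RNAs without a poly(A) tail is not stated, and this was not tested. *Terc*, the RNA template of telomerase, read -2.69, -2.82, -2.96 and -2.80 in control and -3.45, -3.51, -3.84 and -3.43 with HX630. It fell by 0.74 on the log2 scale (SE 0.10, limma adjusted p = 4.5e-04), and its groups did not overlap, but spike-in scaling put it under the fold threshold (-0.52). *Rmrp*, the RNA of RNase MRP, changed by -0.35 (limma adjusted p = 0.038) and *Rpph1*, the RNA of RNase P, by -0.19 (limma adjusted p = 0.27), and for both the groups overlapped. *Snora74a*, a snoRNA, went from -3.59 ± 0.081 to -4.03 ± 0.12 (SD, n = 4 each), a change of -0.44 under the fold threshold with no overlap. The spliceosomal *Rnu1b6*, *Rnu2-10* and *Rnu12* changed by -0.037, -0.072 and -0.069, with overlapping groups. *Rnu7*, which processes histone messages, was higher on every HX630 array (0.20, limma adjusted p = 0.0026) but under the fold threshold. *Rnu3b1*, a U3 snoRNA, changed by 0.28 with overlap, and the snoRNA *Snord123* by -0.37 without overlap or call.

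Of 6 probes of 5 listed imprinted RNAs, 1 rose (*Mirg*) and 3 probes of 2 genes fell. Over all probes on all 8 arrays, 7.09% rose and 10.8% fell. *Dio3os* was not on that list and is described with its region. *Mirg*, a microRNA-bearing transcript of the imprinted *Dlk1-Dio3* region, rose from -1.93, -1.85, -1.96 and -2.03 in control to -1.07, -1.05, -1.05 and -1.15 with HX630. This was 182% of the control signal (0.86, SE 0.047, limma adjusted p = 2.8e-06), and the groups did not overlap. *Meg3*, the long noncoding RNA of the same region, read -5.57, -5.80, -6.03 and -5.83 in control and -5.80, -6.22, -6.22 and -6.63 with HX630, with overlap and no call (-0.41, limma adjusted p = 0.077). *Dio3os*, transcribed opposite the gene of deiodinase 3 at the far end of that region, fell. It read -4.82, -5.38, -5.45 and -5.48 in control and -6.06, -6.14, -6.30 and -6.21 with HX630 (-0.90, SE 0.15, limma adjusted p = 0.0012). Its levels and those of *Meg3* lie close to the dimmest probes kept.

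*Peg13* fell from 3.51, 3.55, 3.60 and 3.61 to 2.79, 2.81, 2.77 and 2.76, which left 58.2% of the control signal (-0.78, SE 0.035, limma adjusted p = 1.1e-06). *Kcnq1ot1* is the paternally expressed RNA that runs antisense within *Kcnq1*. Its brighter probe fell from 0.46, 0.44, 0.29 and 0.29 to -0.44, -0.33, -0.44 and -0.36 (-0.77, SE 0.055, limma adjusted p = 1.2e-05). The other *Kcnq1ot1* probe fell by 0.67 on the log2 scale (limma adjusted p = 0.0020) and missed the fold threshold without control array 3 (-0.58), with array medians (-0.58) and with normexp background correction (-0.53). *Airn*, the antisense RNA of *Igf2r*, changed by -0.063 with overlapping groups. Under spike-in scaling *Peg13* at -0.56 and *Kcnq1ot1* at -0.55 were no longer past the fold threshold.

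The microRNAs lie within the spans of 11 of the 271 noncoding genes, of which 1 rose (*Mirg*), 1 fell (*Mir22hg*) and 9 were not called. Each call is 9.09% of the 11, beside 7.09% up and 10.8% down over all probes on all 8 arrays. The array measured the long transcripts and not the mature microRNAs. Sequences of some are shown to tell which microRNAs the transcripts that changed, and their neighbors in this class, carry, with the seed, bases 2 to 8, in capitals, from RefSeq on GRCm38.p6.
miR-22-5p in Mir22hg, chr11:75463734-75463755, plus strand: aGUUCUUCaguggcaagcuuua
miR-22-3p in Mir22hg, chr11:75463772-75463793, plus strand: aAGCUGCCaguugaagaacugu
miR-410-3p in Mirg, chr12:109743764-109743784, plus strand: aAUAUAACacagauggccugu
miR-377-3p in Mirg, chr12:109740553-109740574, plus strand: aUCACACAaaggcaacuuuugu
miR-409-3p in Mirg, chr12:109743204-109743225, plus strand: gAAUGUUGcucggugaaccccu
miR-453 in Mirg, chr12:109735669-109735692, plus strand: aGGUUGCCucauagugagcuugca
miR-496a-5p in Mirg, chr12:109739132-109739152, plus strand: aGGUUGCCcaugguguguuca
miR-92a-3p in Mir17hg, chr14:115044476-115044496, plus strand: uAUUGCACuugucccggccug
miR-15a-5p in Dleu2, chr14:61632075-61632096, minus strand: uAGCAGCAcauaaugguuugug
miR-16-5p in Dleu2, chr14:61631936-61631957, minus strand: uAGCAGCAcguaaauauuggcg
miR-291a-3p in D7Ertd143e, chr7:3218968-3218989, plus strand: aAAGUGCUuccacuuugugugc
miR-294-3p in D7Ertd143e, chr7:3220691-3220712, plus strand: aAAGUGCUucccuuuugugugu
miR-295-3p in D7Ertd143e, chr7:3220815-3220837, plus strand: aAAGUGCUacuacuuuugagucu
The 10 microRNA genes within *Mirg* give 19 mature sequences with 18 seeds, so they share little. Only miR-453 and miR-496a-5p have the same one, GGUUGCC. The *Dleu2* span holds miR-15a and miR-16, which share AGCAGCA, and the D7Ertd143e span holds a cluster known from embryonic stem cells, in which miR-291a-3p, miR-294-3p and miR-295-3p share AAGUGCU.

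*Mir22hg*, the host of miR-22, read -2.28, -2.43, -1.94 and -2.20 in control and -3.60, -3.61, -3.78 and -3.56 with HX630. It kept 37.2% of the control signal (-1.43, SE 0.10, limma adjusted p = 1.3e-05). *Mir17hg*, the host of the miR-17 to miR-92a cluster, was lower on every HX630 array but under the fold threshold (-0.43, limma adjusted p = 4.5e-04). *Dleu2* changed by -0.087 (limma adjusted p = 0.051) and D7Ertd143e by -0.30 (limma adjusted p = 0.020), neither called, although in both every HX630 array lay below control. Among 9 genes of microRNA processing, *Ago4* rose by 1.02 and *Ago2* fell by 0.77 on the log2 scale, and the median was 0.23.

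The nuclear and X-linked RNAs gave no call by limma or the methods' t-test. At an unadjusted limma p below 0.05, 2 of 3 probes of nuclear RNAs were lower, and of 4 probes from the X-inactivation center 2 were lower and 1 higher. *Malat1*, of nuclear speckles, read -0.64, -0.95, -0.55 and -0.59 in control and -0.63, -0.31, -0.44 and -0.41 with HX630, with overlap (0.24, limma adjusted p = 0.083). *Neat1*, the scaffold of paraspeckles, read 2.20, 2.17, 2.36 and 2.26 in control and 1.81, 2.08, 2.07 and 1.99 with HX630. Its arrays did not overlap, but the change was small (-0.26, limma adjusted p = 0.015). The 5 paraspeckle proteins tested were all on the higher side with none called by either test, a median of 0.45 and *Pspc1* at 0.56, and each had an unadjusted limma p below 0.05. *Miat* changed by -0.51 (limma adjusted p = 0.036) with overlapping groups.

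*Xist*, which coats the inactive X chromosome, had a probe at -0.11 and another at 0.14, both with overlap. *Ftx*, from the same region, had probes at -0.18 and 0.090 and no call. *Norad*, a cytoplasmic RNA that binds Pumilio proteins, was lower with all 4 probes, from -0.51 to -0.61, without overlap, and 1 of them was past the fold threshold. *Tug1* was higher with all 3 probes (0.086, 0.17 and 0.43) and none was called. *Pvt1*, the neighbor of *Myc*, had a probe at -0.53 (limma adjusted p = 6.4e-05) and another at -0.099, neither past the fold threshold.

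**Figure D3:**
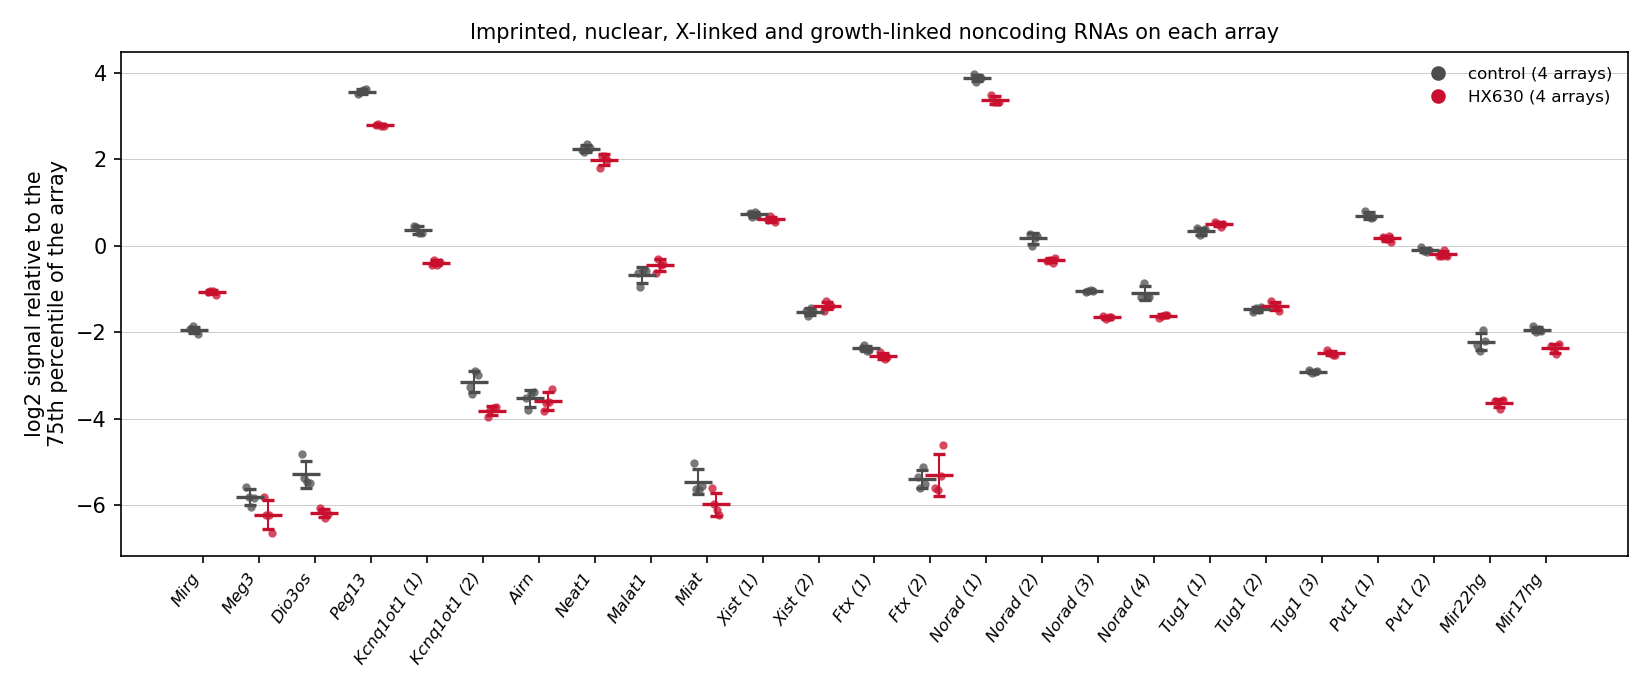
Each point is the log2 signal of 1 probe on 1 array relative to the 75th percentile of that array, in gray for 4 control and in red for 4 HX630 arrays, with bars for the mean and SD. Numbers in parentheses on the x axis tell probes of one gene apart. *Mirg* and 2 of 3 *Tug1* probes lie higher with HX630, *Peg13*, *Kcnq1ot1*, *Dio3os*, *Mir22hg* and *Norad* lower, and *Malat1*, *Airn* and *Xist* overlap.

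The largest single fall was 2010204K13Rik, a long noncoding RNA. It read -3.66, -3.52, -3.52 and -3.63 in control and -5.40, -5.73, -5.76 and -5.76 with HX630, which left 23.6% of the control signal (-2.08, SE 0.089, limma adjusted p = 8.4e-07). AW011738 fell with both of its probes, by 1.32 and 1.61 on the log2 scale. The pseudogene Gm13315 went from 2.61 ± 0.27 to 1.11 ± 0.13 (SD, n = 4 each), a log2 fold change of -1.5. 4833418N02Rik fell by 1.27 and Gm9767 by 1.28 on the log2 scale. No function is stated here for these transcripts.

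*Speer1* rose the most, on a probe for a noncoding record of a gene now annotated as coding. It read -4.43, -4.88, -4.95 and -5.20 in control and -3.25, -3.19, -3.23 and -3.23 with HX630 (1.64, SE 0.15, limma adjusted p = 3.8e-05). 1700028J19Rik read -1.35, -1.32, -1.40 and -1.44 in control and -0.06, 0.13, -0.01 and 0.02 with HX630, 263% of the control signal (1.40, SE 0.051, limma adjusted p = 4.6e-07). 2810025M15Rik rose with both probes, at 0.81 and 0.84. The probe for a noncoding variant of *Zfp672* fell by 0.83 on the log2 scale, while the coding probe of that gene changed by -0.25 and was not called. Gm5166 rose by 1.02 and 2900052N01Rik by 1.01, both without overlap between the groups. With normexp background correction, Gm5166 at 0.56, 2900052N01Rik at 0.58, *Atad3aos* at 0.36 and *Six3os1* at 0.53 were no longer past both thresholds.

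Antisense, overlapping and pseudogene RNAs were set beside the coding gene of the same name stem. Of 40 symbols with such an ending, 26 had a tested coding partner, and 8 of these had a call on either side. *Pisd-ps3* read 0.24, 0.16, 0.06 and -0.03 in control and 1.32, 1.30, 1.22 and 1.29 with HX630 (1.17, limma adjusted p = 2.1e-06). *Pisd-ps1* rose by 0.85, and *Pisd* itself, which encodes the mitochondrial phosphatidylserine decarboxylase, by 1.00. Pseudogene and parent can share sequence, and whether these probes tell them apart was not tested.

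*Atad3aos* rose by 1.06 (-5.88, -5.75, -6.06 and -5.96 in control, -4.85, -4.76, -4.92 and -4.88 with HX630), while *Atad3a*, a mitochondrial membrane ATPase, fell by 1.00 on the log2 scale. *Kcnq1ot1* fell by 0.77 on the log2 scale while *Kcnq1*, a potassium channel gene, rose by 1.22. *Six3os1* rose by 0.71 and *Six3*, a homeobox gene, changed by -0.11 without a call. *Dio3os* fell by 0.90 on the log2 scale and *Dio3*, at -6.49 in control cells, changed by -0.20 without a call. The probes of *Atad3aos*, *Dio3os* and *Dio3* are dim. For *Map2k3os* (0.28) and *Zfhx2os* (-0.37), the coding gene was called and the noncoding RNA was not, with *Map2k3* at 0.59 and *Zfhx2* at 0.66. So among the 8 pairs, 2 were called in the same direction, both with *Pisd* as the coding gene, and 2 in opposite directions. The *Atad3aos* call was lost with normexp background correction and that of *Kcnq1ot1* with spike-in scaling. Over all probes tested, 7.46% rose and 11.2% fell, and an excess of calls among the pairs was not tested.

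**Figure D4:**
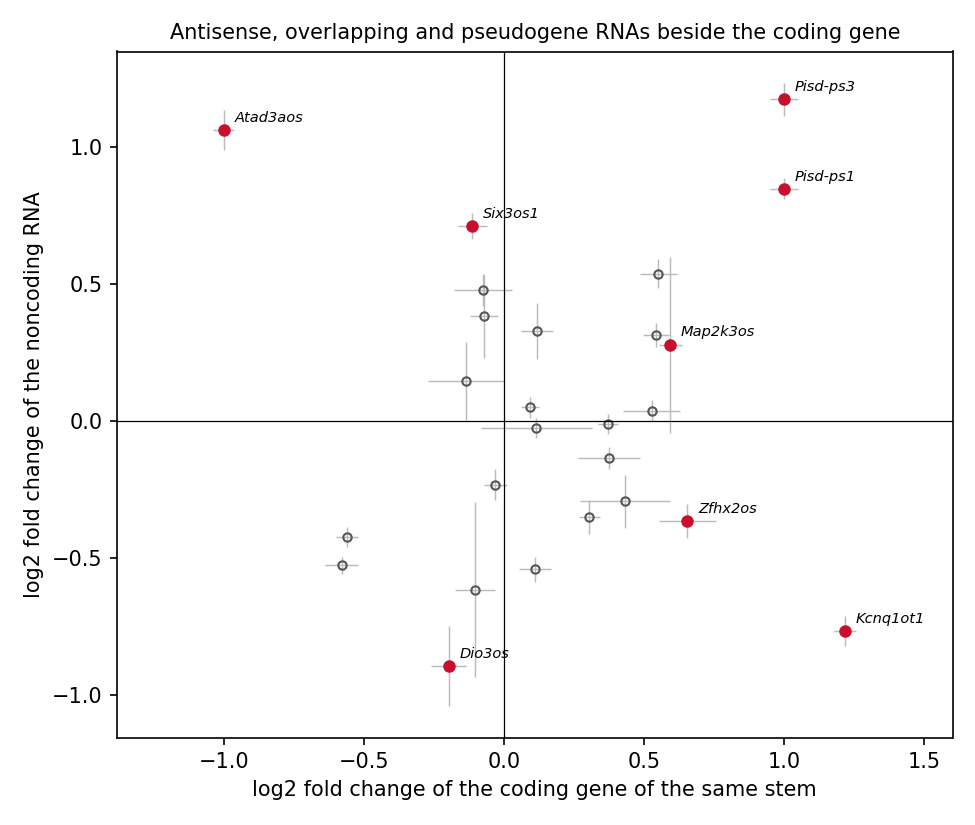
Each point is 1 of 26 noncoding RNAs with a tested coding gene of the same name stem, by the probe with the highest control signal. The x axis is the log2 fold change of the coding gene and the y axis that of the noncoding RNA, lines are standard errors, and red points have a call on either side. *Pisd-ps1* and *Pisd-ps3* lie high on both axes, *Atad3aos* and *Kcnq1ot1* in the opposite corners.

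Pseudogene probes with high signals moved unevenly. Of 20 such probes with a mean level above 5, a limit set after their values were seen, 8 probes of 4 symbols fell and none rose, and the 12 others changed by -0.50 to 0.12. Of all 100 pseudogene probes 18% fell and 5% rose, and of all probes on all 8 arrays 10.8% and 7.09%. Gm8580 (0.12), Gm6548 (-0.048) and Gm5766 (-0.043 and -0.073) were among those not called. Gm5069 fell with all 3 probes, by 0.84, 0.90 and 1.01 on the log2 scale, and Gm6981 with 4 of 5, by 0.80 to 1.07. The fifth Gm6981 probe changed by 0.063. The Gm12070 probes changed by -0.47, -0.79 and -0.86, and the larger 2 changes were called. The -0.79 became -0.57 with spike-in scaling and -0.50 after quantile normalization, under the fold threshold. Gm5523 changed by -0.50 with one probe and 0.053 with the other, with no call. Such probes can pick up transcripts of their parent genes, and their part in these values was not tested. Of 41 symbols with more than 1 probe here, 12 had a called probe, 4 had every probe called one way and none had calls in both directions. *Btnl5-ps* had a probe at 1.06, called, and another at 0.0019, not called.

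Of the probes without a symbol, those for NR_002840 changed by -0.81 (limma adjusted p = 1.2e-06), -0.54 and -0.035, and only the first was called. A probe for NR_027875 fell by 0.81 on the log2 scale. No gene is named for them here.

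The receptor that HX630 binds pairs with other receptors on repeats of AGGTCA. That half-site, on either strand, occurred in 27 of 180 promoters of the noncoding genes (15%) and in 5340 of 32851 of the whole table (16.3%), in windows from 250 bases before to 50 after the start. Among promoters of noncoding genes it was in 1 of 10 that rose and in 2 of 31 that fell. A repeat of it after a spacer of 1 base, AGGTCANAGGTCA, which overlaps the half-site search, was in 13 promoters of the whole table and in none of these. Nothing about the receptor follows from letters absent in these windows.

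The two-sided exact permutation test over all 70 regroupings of the 8 arrays cannot go below 0.0286. Every probe whose groups do not overlap takes that value by construction, so it adds no evidence to the values above.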

How the data were processed

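RNA of 4 control and 4 HX630 samples of AtT20 cells was measured on 1-color arrays. The authors deposited for each array the output of Agilent Feature Extraction 10.7.3.1, which holds processed intensity values of each spot after background subtraction and spatial detrending, and detection flags. A second deposited file holds log2 values per probe. They differed by less than 0.01, for 100% of probes, from the log2 processed signals set relative to the array's 75th percentile. The number of arrays limits the precision.

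In R 4.3.3, control spots and outlier spots were left out, spots of one probe were averaged, and the 75th percentile was subtracted. limma 3.58.1 (lmFit, eBayes) was fitted over 28548 probes above background on at least 4 of 8 arrays, with Benjamini-Hochberg adjustment over all of them. The script was tested on simulated data. Probes were named by RefSeq accession (26055 of 39429 matched, GRCm38.p6). The array's design uses another build, and coordinates are printed only for sequences of the RefSeq tables. The members and lists were chosen with earlier results of these data known.

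Genes were named by rule: the 10 largest called rises and falls (the brightest probe of each symbol, groups apart), the members of 6 lists (snoRNA hosts, imprinted, nuclear-body, X-inactivation, structured and growth-linked RNAs), the 5 probes with the highest signal, and called genes ending in os, as or hg with their partner. Genes found by position, and *Norad*, *Zfp672*, 2810025M15Rik, Gm5069 and Gm6981, were named after their values were seen. Alternatives were other scalings, background corrections, filters, tests and thresholds, a replicate block and leaving out each array.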

Additional observations from a re-analysis of the deposited data

Results flagged for a closer look

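In groups of 4 arrays, 6 of 108 groups of the named probes held an array far from the others, where chance gives about 5.4. The gap of that array to the nearest other, as a share of the group's whole range, was 0.913 for 2010204K13Rik in HX630 cells (array 1 at -5.40, the others at -5.75 on average) and 0.88 for *Snhg6* in control cells (array 1 at 3.07, the others at 3.32). It was 0.948 for a *Pvt1* probe in HX630 cells (array 3 at -0.087, the others at -0.23) and 0.946 for the dimmer *Snhg16* probe in control cells (array 2 at -2.29, the others at -2.20). It was 0.831 for *Miat* (array 1 at -5.03, the others at -5.60) and 0.843 for *Dio3os* (array 1 at -4.82, the others at -5.44), both in control cells. Control array 1 was the one apart in 3 of the 6.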

How the results depend on the processing

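Rises numbered 43 with spike-in scaling, 9 with normexp background correction, 54 without a fold threshold and 7 at a fold change above 2. Falls numbered 111 without a fold threshold and 20 above 2, and snoRNA host probes that fell numbered 4 above 2 (the host counts were added after seeing the data). The median change of the noncoding probes was -0.042 with array medians, -0.041 after quantile normalization, 0.092 with spike-in scaling and -0.24 with normexp. Leaving out each array in turn gave 16 to 20 rises, 49 to 56 falls, 7 host probes and medians from -0.14 to -0.11. Same-numbered arrays had correlated deviations of 0.60, -0.016, 0.31 and 0.47, and 5 of 8 arrays correlated best with their own number, so the numbers were not taken as pairs; a replicate block gave 18 rises, 56 falls and 7 host probes. Changes that turned sign belonged to probes without a call. *Airn* read 0.024 with array medians, 0.022 after quantile normalization, 0.16 with spike-in scaling and 0.012 without HX630 array 1. After quantile normalization *Rn4.5s* read 0.19 and Gm15772 0.091. With spike-in scaling the values were 0.12 for *Rn4.5s*, 0.017 for Gm15772, 0.12 for *Pvt1*, 0.11 for *Xist*, 0.042 for *Ftx* and 0.035 for *Rpph1*. The other *Ftx* probe read -0.16 with normexp and -0.14 without HX630 array 4, and up to 0.21 without another array, while *Airn* went down to -0.16 in such runs. Of 30 named probes that were called, 14 kept their call under all 23 alternatives. One of these, a fold change above 2, drops smaller changes by definition, and 13 named probes lost their call under it. Named probes that gained a call numbered 1 with spike-in scaling, 1 with normexp and 8 without a fold threshold. The causes were not tested. Dim probes near background limit what can be read from *Meg3*, *Miat*, *Dio3os*, *Dio3* and *Atad3aos*.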
